A study of Mus musculus with 24 samples.

Results

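The comparison described here set 3 arrays of NIH3T3 cells collected 60 min after spermidine was added against 3 arrays of the same cells collected at 0 min, labelled unstimulated. These are 6 of the 24 arrays of a time course with 8 times and 3 biological replicates at each. NIH3T3 is an immortalised line of mouse embryonic fibroblasts. All cells, those at 0 min included, had been kept for 96 h in 1 mM DFMO (difluoromethylornithine), an irreversible inhibitor of ornithine decarboxylase that lowers putrescine and spermidine. The 60 min group then received 10 µM spermidine together with 1 mM aminoguanidine, which blocks the oxidation of spermidine by serum amine oxidases, and the labels do not say whether aminoguanidine was also present at 0 min. No DFMO-treated cells handled for 60 min without spermidine are among the samples, so that spermidine, aminoguanidine and the time and handling themselves cannot be told apart. Labelled cDNA from 200 ng of total RNA was hybridised to a whole-transcript array. The values are log2 expression values, and 19938 genes were compared, each through 1 probe set. A bulk RNA value does not distinguish fewer expressing cells from less RNA per cell.

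Spermidine and its relatives are small cations that bind RNA, DNA and ATP, and spermidine donates the group that turns lysine into hypusine in the translation factor eIF5A. Fibroblasts without polyamines stop proliferating, and they resume when polyamines are returned. Immediate early genes, which are transcribed within minutes of a growth factor, serum or stress signal without new protein synthesis, include transcription factors (Egr1, Fos, Jun), secreted proteins (Ccn1, Edn1) and feedback inhibitors (the dual specificity phosphatases). Replication-dependent histone genes, by contrast, are tied to S phase: their RNAs have no poly(A) tail and are degraded when DNA synthesis stops.

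At 60 min, 5 of the 19938 genes differed from 0 min at an adjusted p under 0.05 (limma over all 24 arrays, two-sided, Benjamini-Hochberg), which is 0.0251% of the genes tested. Egr1 and Ccn1, both early response genes, rose. The measured values differed 5.09-fold for Egr1, whose level at 0 min lay near the array medians and is not known to be above background, and 2.66-fold for Ccn1. H1f5, a linker histone gene, fell by 1.29 on the log2 scale, which is 2.44-fold. Rassf1, the gene of a Ras association scaffold protein, fell 1.48-fold. Mir181b-1, a microRNA gene, was called lower by 1.22-fold in the measured values, all of which lay under the array medians and are not known to be above background. Of all genes tested, 0.01% were thus called higher and 0.015% lower. The rest of the transcriptome moved little: 99.01% of genes lay within 0.25 of no difference on the log2 scale, and the median difference was -0.00068. The median standard error of a difference was 0.0567, which gives a 95% interval of 0.118 on either side, and 17 genes differed by at least 0.5 upwards and 6 downwards.

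The deposited values had the same mean for each replicate number over the 8 times in every gene, so an effect of replicate number was removed before deposit and these p-values are somewhat too small. With replicate number as a block, 2 genes stayed called, H1f5 (adjusted p = 9.55e-05) and Egr1 (adjusted p = 0.018), or 0.01% of the genes tested. Rassf1 and Ccn1 then had an adjusted p of 0.0501 each, and Mir181b-1 had 0.108. A fit to the 6 arrays alone called 0 genes (limma), with 1263 at an unadjusted p under 0.05, and H1f5 and Egr1 each at an adjusted p of 0.0544.

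**Figure D1:**
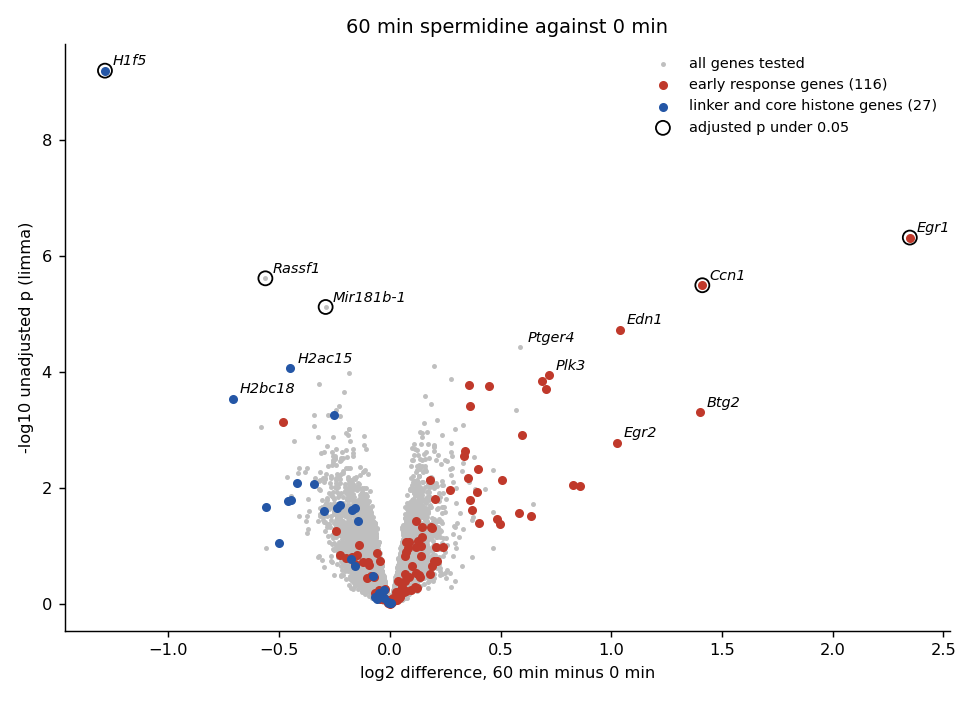
Each point is 1 of 19938 genes, with the log2 difference at 60 min minus 0 min on the x axis and the -log10 of the unadjusted limma p on the y axis. Red points are the 116 early response genes, blue points the 27 linker and core histone genes, and rings mark the 5 genes with an adjusted p under 0.05; the early response genes make up most of the right edge and the histone genes much of the left.

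The sequences shown next belong to the genes that fell and to genes with large positive differences. Mir181b-1 is 1 of 6 hairpin genes of the miR-181 family on the array. The mature 5p strands of the family share 1 seed (bases 2 to 8, in capitals) and take 4 distinct forms, printed from RefSeq (GRCm38.p6).
Mir181b-1 and Mir181b-2: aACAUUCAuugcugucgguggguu
Mir181a-1 and Mir181a-2: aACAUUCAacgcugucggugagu
Mir181c: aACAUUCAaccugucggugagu
Mir181d: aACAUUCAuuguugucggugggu
The hairpin of Mir181b-1 lies at chr1:137966639-137966718 on the plus strand, 97 bases after that of Mir181a-1 at chr1:137966455-137966541. The array measured RNA at each hairpin locus and not the mature strand, which the 4 lines show to be the same for both miR-181b genes.

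H1f5 lies at chr13:21779832-21780625 (GRCm38.p6), in the large cluster of histone genes, and its promoter is shown beside those of the other linker histone genes of that cluster on the array. Windows run from 130 to 16 bases before the start of the gene, in the direction of transcription, with AAACACA (the H1 box), CCAAT (or ATTGG, the same motif on the other strand) and TATAAA in capitals.
H1f5, chr13:21780641-21780755, minus strand: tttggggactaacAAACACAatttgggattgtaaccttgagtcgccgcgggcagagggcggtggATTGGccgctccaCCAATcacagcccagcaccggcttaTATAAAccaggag
H1f3, chr13:23554902-23555016, plus strand: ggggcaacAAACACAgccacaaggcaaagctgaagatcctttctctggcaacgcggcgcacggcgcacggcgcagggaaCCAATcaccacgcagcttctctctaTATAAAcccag
H1f2, chr13:23738677-23738791, plus strand: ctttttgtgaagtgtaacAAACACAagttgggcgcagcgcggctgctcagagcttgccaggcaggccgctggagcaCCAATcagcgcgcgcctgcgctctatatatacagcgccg
H1f1, chr13:23763538-23763652, plus strand: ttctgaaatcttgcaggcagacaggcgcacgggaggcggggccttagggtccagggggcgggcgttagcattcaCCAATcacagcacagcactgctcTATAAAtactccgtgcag
AAACACA was found on either strand within 250 bases upstream in 3 of the 5 linker histone genes and in 7.20% of 27025 genes. CCAAT was found in 4 of 5 and in 37.5%, and TATAAA in 3 of 5 and in 14.3%. The H1 box and CCAAT of H1f5 are thus also present in H1f3 and H1f2, 2 genes that were not called at 60 against 0 min. From 30 to 60 min H1f3 had -0.62 (limma adjusted p = 0.0223, and 0.0693 with the replicate block). For H1f2 the 95% interval at 60 against 0 min, -0.62 to 0.50, is too wide to call it unchanged. A match is a description of the letters and not evidence of a bound factor.

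Of the 10 genes with the largest positive differences under the naming rule given below, 8 had a promoter in the RefSeq table, and the rest were not searched. Among the 8, 3 held a motif of stimulus-responsive promoters, shown in capitals: TGACGTCA, the cyclic AMP response element, and the CArG box of serum response factor.
Btg2, chr1:134079292-134079341, minus strand: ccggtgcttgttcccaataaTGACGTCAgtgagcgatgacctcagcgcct
Errfi1, chr4:150854999-150855048, plus strand: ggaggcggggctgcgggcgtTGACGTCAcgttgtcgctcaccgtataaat
Egr2, chr10:67537474-67537523, plus strand: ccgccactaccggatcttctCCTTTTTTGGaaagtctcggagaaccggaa
Ccn1 held neither, and its window is shown with TATAAA in capitals.
Ccn1, chr3:145649996-145650045, minus strand: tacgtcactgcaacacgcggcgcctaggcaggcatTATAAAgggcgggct
Of the 116 measured early response genes, 88 had a promoter in the RefSeq table; 6 of these held TGACGTCA and 5 a CArG box, against 1.77% and 1.62% of all genes.

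Egr1 encodes a zinc finger transcription factor that is a standard readout of MAP kinase and serum response factor activity. Its log2 values at 0 min were 4.65, 4.30 and 4.33 in replicates 1, 2 and 3, close to the array medians of 4.41 to 4.43. At 60 min they were 6.57, 7.34 and 6.41. The groups did not overlap, and replicate 2 was the highest at 60 min. The difference was 2.35 ± 0.32 (SE; 95% interval 1.68 to 3.01; limma adjusted p = 0.00473).

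Ccn1 encodes a secreted matricellular protein that binds integrins, and the gene (chr3:145646971-145649985) is a common reporter of YAP and serum response factor activity. It had log2 values of 9.72, 9.68 and 8.92 at 0 min and of 10.63, 11.11 and 10.81 at 60 min. Replicate 3 was the low one at 0 min, and no array at 60 min fell among those at 0 min. The difference was 1.41 ± 0.22 (SE; 95% interval 0.95 to 1.87; limma adjusted p = 0.0157), and it was 1.15 with an adjusted p of 0.0989 when 0 min replicate 3 was left out. The call was also lost without 60 min replicate 2 (1.28, adjusted p = 0.138) and without 60 min replicate 3 (1.43, adjusted p = 0.1001).

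H1f5 encodes linker histone H1.5, which binds the DNA that enters and leaves the nucleosome. Its log2 values were 8.37, 8.10 and 7.86 at 0 min and 6.86, 6.88 and 6.73 at 60 min. The 3 arrays at 60 min lay within a narrow band, well below the lowest array at 0 min. The difference was -1.29 ± 0.11 (SE; 95% interval -1.53 to -1.05; limma adjusted p = 1.25e-05), and the adjusted p stayed between 5.44e-06 and 2.85e-04 when any 1 of the 6 arrays was left out.

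Rassf1, at chr9:107551434-107562267, encodes a scaffold protein that links Ras signalling, microtubules and the Hippo kinases. The log2 values were 6.04, 5.98 and 6.04 at 0 min and 5.50, 5.61 and 5.25 at 60 min. The spread at 0 min was small, and replicate 3 was the lowest at 60 min. The difference was -0.56 ± 0.09 (SE; 95% interval -0.74 to -0.38; limma adjusted p = 0.0157). The call was lost without any 1 of 4 arrays: 0 min replicates 1, 2 and 3 (adjusted p = 0.0722, 0.0530 and 0.0909) and 60 min replicate 3 (adjusted p = 0.1004).

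Mir181b-1 had the smallest of the 5 called differences. The log2 values were 4.31, 4.19 and 4.22 at 0 min and 3.90, 3.99 and 3.95 at 60 min, all under the array medians. The difference was -0.29 ± 0.05 (SE; 95% interval -0.39 to -0.19; limma adjusted p = 0.0298), and the call was lost whichever of the 6 arrays was left out (adjusted p 0.0530 to 0.198). The other 5 genes of the family, whose mature sequences share the seed shown above, had differences between -0.05 and 0.02. Its neighbour Mir181a-1 had -0.02 ± 0.05 (SE). Of 300 microRNA genes with a value, 17 had all 3 arrays at 60 min above those at 0 min and 16 had them below, which is 5.67% and 5.33% of them and close to the 5.49% and 6% of all genes.

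**Figure D2:**
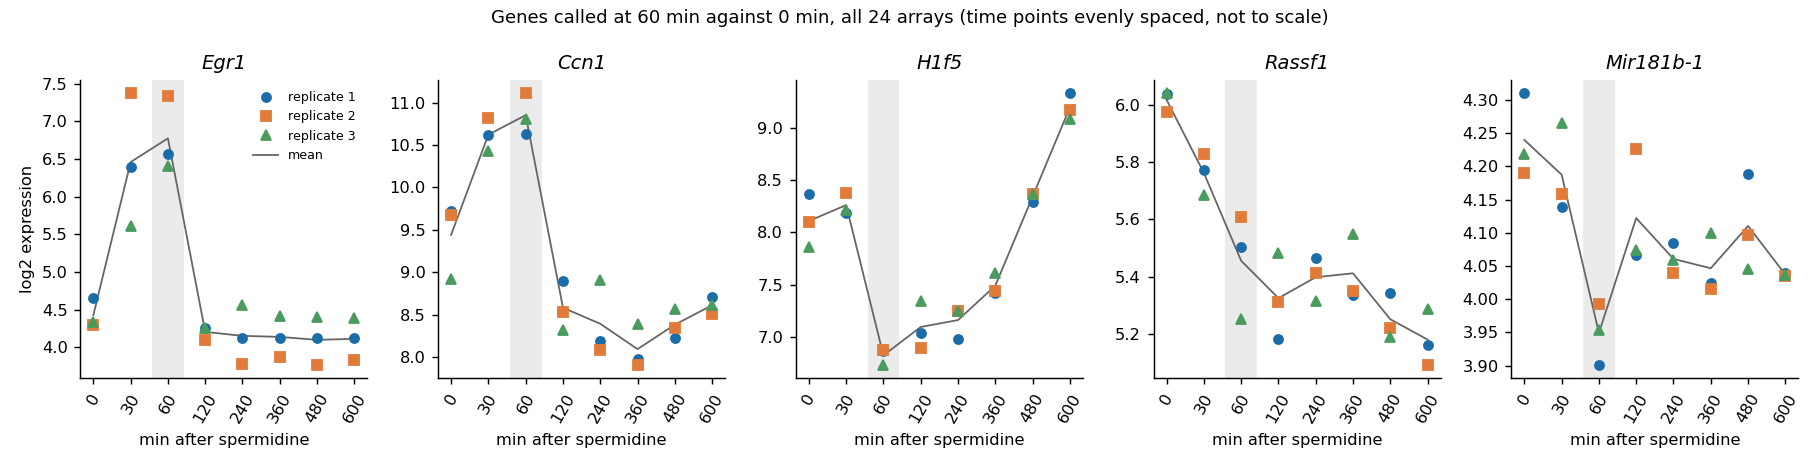
Log2 expression (y axis) of the 5 called genes in all 24 arrays against min after spermidine (x axis, evenly spaced and not to scale), with 1 marker per replicate and a line through the means. The 60 min arrays are shaded: Egr1 and Ccn1 were high at 30 and 60 min with means below that of 0 min from 120 min on, while H1f5 dropped between 30 and 60 min, from a mean of 8.26 to 6.82.

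The 5 genes reached their 60 min level on different schedules. Egr1 had a mean of 6.46 ± 0.88 (SD, n = 3) at 30 min, with arrays from 5.61 to 7.37, and of 4.20 ± 0.09 at 120 min. Its difference between 60 and 30 min was not called (adjusted p = 0.923), and it fell by 2.57 from 60 to 120 min (limma adjusted p = 4.07e-04). Ccn1 likewise had 10.62 ± 0.19 (SD, n = 3) at 30 min (60 minus 30 min adjusted p = 0.918) and fell by 2.27 from 60 to 120 min (adjusted p = 4.52e-05). From 120 min on, the Ccn1 means of 8.09 to 8.61 were under the 0 min mean of 9.44. For both genes, then, the 60 min arrays stood beside those at 30 min.

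H1f5 moved later. Its mean was 8.26 ± 0.10 (SD, n = 3) at 30 min, and it fell by 1.44 between 30 and 60 min (limma adjusted p = 1.83e-06, and 1.69e-05 with the replicate block). It was 7.09 ± 0.23 at 120 min, 7.49 ± 0.11 at 360 min, 8.34 ± 0.04 at 480 min and 9.20 ± 0.13 at 600 min, so that the mean was below that at 0 min from 60 to 360 min and above it at 480 and 600 min. Rassf1 had 5.76 ± 0.07 at 30 min and means between 5.18 and 5.41 from 120 min on, with no return to the 6.02 ± 0.04 of 0 min. Mir181b-1 had its lowest mean at 60 min, and later means were between 4.04 and 4.12. For Rassf1 and Mir181b-1 neither neighbouring interval was called (adjusted p 0.110 to 0.557).

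The early response genes were followed further through 7 lists of 120 genes, of which 116 were measured. Of these, 2 were called, both higher, against 0.01% of all genes. All 3 arrays at 60 min lay above the 3 at 0 min in 36 of the 116, and below them in 3, against 5.49% and 6% of all genes. An unadjusted p under 0.05 went with a positive difference in 34 and with a negative one in 1, against 2.48% and 2.65% of all genes. The median of the 116 was 0.07, and 85 differences were positive. Within the 36 genes, 60 min replicate 2 was the highest array in 25, as it was in each of the 10 largest positive differences shown in the plot by replicate, and without it the 34 genes became 20. Over all 116 genes it did not stand apart: the median difference from the 0 min mean was 0.05, 0.11 and 0.12 in replicates 1, 2 and 3 at 60 min. Its part in the result was not tested.

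**Figure D3:**
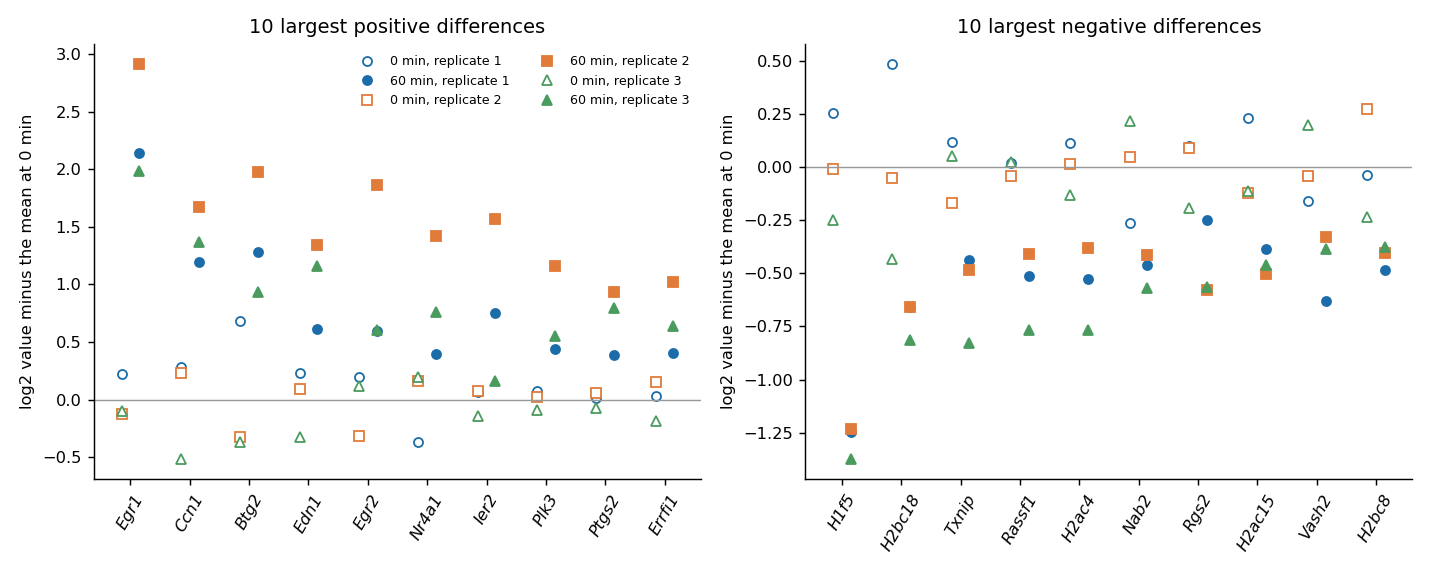
For the 10 largest positive (left) and negative (right) differences, each array's log2 value minus the mean at 0 min is shown on the y axis, with open markers for 0 min, filled markers for 60 min and 1 shape per replicate. Genes were taken from those whose groups do not overlap and whose unadjusted p was under 0.05. Gene models without a proper name and olfactory or vomeronasal receptor genes were passed over. Replicate 2 (filled squares) is the highest at 60 min in each of the 10 genes on the left.

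Among transcription factors, Egr2, a relative of Egr1, had log2 values of 4.55, 4.04 and 4.47 at 0 min and 4.95, 6.22 and 4.96 at 60 min. The difference of 1.02 ± 0.28 (SE) was carried mostly by replicate 2 and was not called (adjusted p = 0.610). Egr3 and Egr4 differed by 0.07 each, from levels of 4.20 and 3.88. Nab2, a corepressor that binds Egr proteins, differed in the opposite direction: 7.00, 7.32 and 7.48 at 0 min against 6.81, 6.85 and 6.70 at 60 min, a difference of -0.48 ± 0.12 (SE; adjusted p = 0.448). Within AP-1, Jun had 0.36 ± 0.08 (SE; adjusted p = 0.335), while Fos, Fosb and Junb, whose mean levels were under the array medians, had 0.21, 0.12 and 0.13. Nr4a1, an orphan nuclear receptor, had 0.86 ± 0.30 (SE), Ier2 0.83 ± 0.28, the stress factor Atf3 0.51 ± 0.17 and Myc 0.36 ± 0.14, each with an adjusted p above 0.8. Of the 28 early transcription factors outside the Egr and AP-1 lists, 9 had groups that did not overlap, all higher, against 5.49% of all genes above and 6% below.

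Among secreted and signalling genes, Edn1, which encodes the precursor of the peptide endothelin, came closest to the threshold. Its log2 values were 6.82, 6.68 and 6.26 at 0 min and 7.20, 7.93 and 7.75 at 60 min, with every array at 60 min above every array at 0 min. The difference was 1.04 ± 0.18 (SE; adjusted p = 0.061), and 0.165 with the replicate block. Plk3, a polo-like kinase, had 0.72 ± 0.15 (SE), Ptgs2, the inducible cyclooxygenase, 0.71 ± 0.15, and Errfi1, an inhibitor of the EGF receptor, 0.69 ± 0.15, with adjusted p-values of 0.206 to 0.231. Tnfaip3, a ubiquitin-editing inhibitor of NF-kB, had 0.36 ± 0.08, and Nppb, a natriuretic peptide gene, 0.45 ± 0.10. In this list, 12 of 35 genes had groups that did not overlap upwards and 1 downwards, against 5.49% and 6% of all genes.

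Ccn2 and Ankrd1, which are read together with Ccn1 as targets of YAP, had 0.58 ± 0.24 (SE; adjusted p = 0.921) and 0.64 ± 0.27 (adjusted p = 0.936). Their groups did not overlap, and their standard errors were near that of Ccn1 for differences that were smaller. Btg2, an antiproliferative gene that p53 and growth signals both induce, had the third largest positive difference, 1.40 ± 0.34 (SE), with 6.97, 5.97 and 5.93 at 0 min and 7.58, 8.27 and 7.22 at 60 min. Replicate 1 was high at 0 min, and Btg2 was not called (adjusted p = 0.375). Zfp36, whose product binds AU-rich elements and speeds the decay of the RNAs that carry them, had 0.33 ± 0.10 (SE; adjusted p = 0.634). The feedback phosphatases Dusp5 and Dusp6 had 0.60 ± 0.16 and 0.34 ± 0.10, and the receptor signalling inhibitor Spry2 had 0.40 ± 0.12 (SE; adjusted p 0.524 to 0.737).

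More of these genes were called in the next interval. From 60 to 120 min, 22 of the 116 early response genes fell and 1 rose, where 0.306% and 0.105% of all genes did (limma adjusted p under 0.05). With the replicate block 20 fell and 0 rose, against 0.16% and 0.0251% of all genes. Without 120 min replicate 3, which stood apart from its labelled time, 19 fell and 0 rose, against 0.13% and 0.00502%. Edn1 fell by 1.69, Btg2 by 2.09, Plk3 and Ptgs2 by 1.01 each, Errfi1 by 0.85 and Myc by 0.84, and these 6 genes, Egr1 and Ccn1 stayed called under both of these fits. The falls went past the 0 min means: at 120 min against 0 min the median of the 116 genes was -0.12. Edn1 had -0.65, Btg2 -0.69 and Myc -0.48 against 0 min, and none of these 3 was called (limma adjusted p 0.128 to 0.418). From 30 to 60 min 0 of the 116 were called (limma), with 6 higher and 4 lower at an unadjusted p under 0.05. The 60 minus 0 min and 120 minus 60 min differences share the 60 min arrays, so the one is not independent of the other. Targets of the actin-regulated MRTF and SRF pathway, a list apart, spanned a narrower range: their 19 genes lay between -0.07 and 0.16 at 60 min, with 0 called and 0 at an unadjusted p under 0.05. Of the 19 differences, 16 were positive. At 60 min 3 of these genes lay entirely above 0 min and 0 below, against 5.49% and 6% of all genes.

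**Figure D4:**
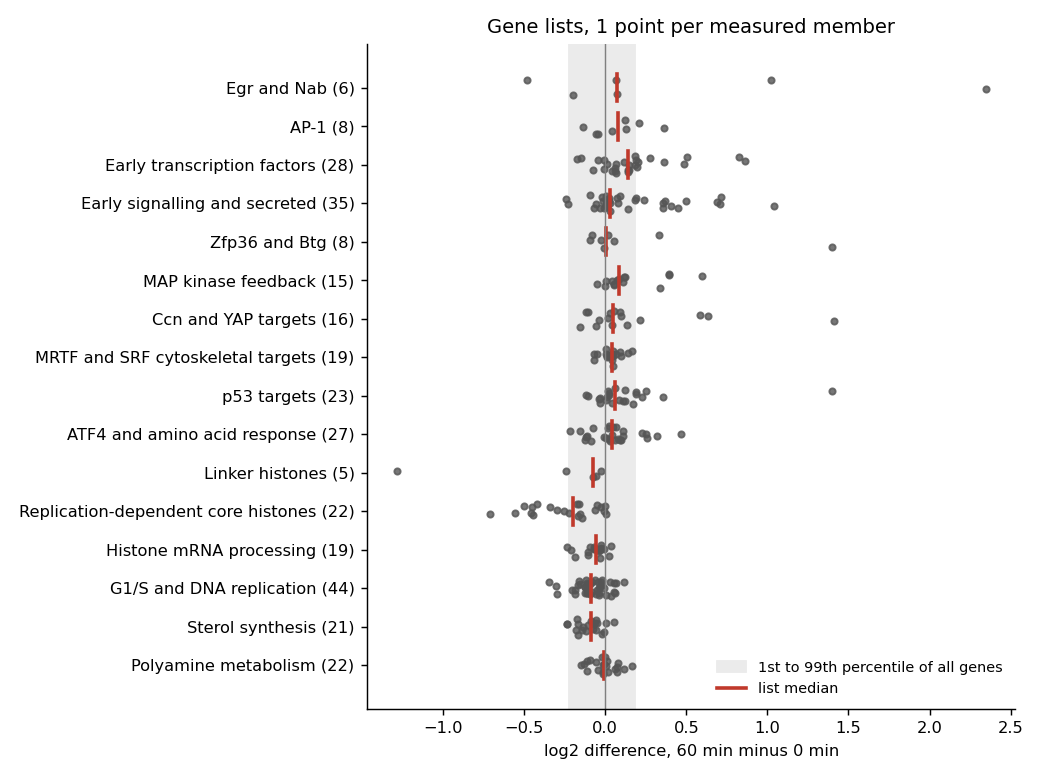
Each point is 1 measured gene of a list, placed by its log2 difference at 60 min minus 0 min (x axis), with the number of measured genes in parentheses, the list median as a red bar and the 1st to 99th percentile of all 19938 genes (-0.22 to 0.18) in grey. The Egr, Ccn, Btg, early signalling and p53 lists reach beyond 1 with medians near 0, whereas the core histone list has its median at -0.20.

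The histone genes differed in the other direction. Of 5 measured linker histone genes, H1f5 was called and the others were not. H1f3 had -0.24 ± 0.10 (SE; 95% interval -0.44 to -0.04), H1f1 -0.08 ± 0.07, H1f10, which is not tied to replication, -0.03 ± 0.05, and H1f2 -0.06 ± 0.27 with an interval of -0.62 to 0.50 that allows a sizeable change in either direction. Of 22 core histone genes tied to replication, 0 were called (limma), 13 had a negative difference with an unadjusted p under 0.05 and 0 a positive one, and 10 lay entirely below 0 min and 0 above. Of all genes, 2.65% had such a negative difference and 6% lay entirely below. Their median was -0.20, and 21 of the 22 differences were negative. The 13 became 6 without 60 min replicate 3, 7 without 0 min replicate 1 and 8 without 0 min replicate 2. Histone genes are near-identical copies, so probes may read more than 1 of them, and 10 probe sets that each list the same 12 H3 genes were outside the comparison.

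H2bc18, which encodes an H2B, had the largest difference among the 22 core histone genes read by a probe set of their own. Its log2 values were 6.79, 6.25 and 5.87 at 0 min and 5.65, 5.65 and 5.49 at 60 min, with -0.71 ± 0.16 (SE; adjusted p = 0.286), and the arrays at 0 min were far more spread than those at 60 min. H2ac15, an H2A gene, had 6.59, 6.23 and 6.24 against 5.97, 5.85 and 5.89, with -0.45 ± 0.09 (SE; adjusted p = 0.190). H2ac4 had -0.56 ± 0.22, H4c6 -0.45 ± 0.17, H2bc8 -0.42 ± 0.14, H4c14 -0.34 ± 0.12 and H4c8 -0.25 ± 0.06 (SE; adjusted p 0.375 to 0.909). The 8 measured replacement histones, which are made outside S phase as well, had a median of -0.02 and 0 calls. All 8 differences were negative, 1 of them at an unadjusted p under 0.05 (12.5% of the list, against 2.65% of all genes). Entirely below 0 min was 1 of the 8, against 6% of all genes. Among 19 genes of histone RNA processing, Npat, the coactivator of histone transcription, had -0.21 ± 0.09 and Casp8ap2 -0.19 ± 0.09 (SE), with adjusted p-values of 0.931 and 0.973. They were the only 2 of the 19 at an unadjusted p under 0.05, or 10.5%, against 2.65% of all genes lower at that p. Of the 19 differences, 17 were negative, and 3 genes lay entirely below 0 min (15.8%, against 6% of all genes).

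**Figure D5:**
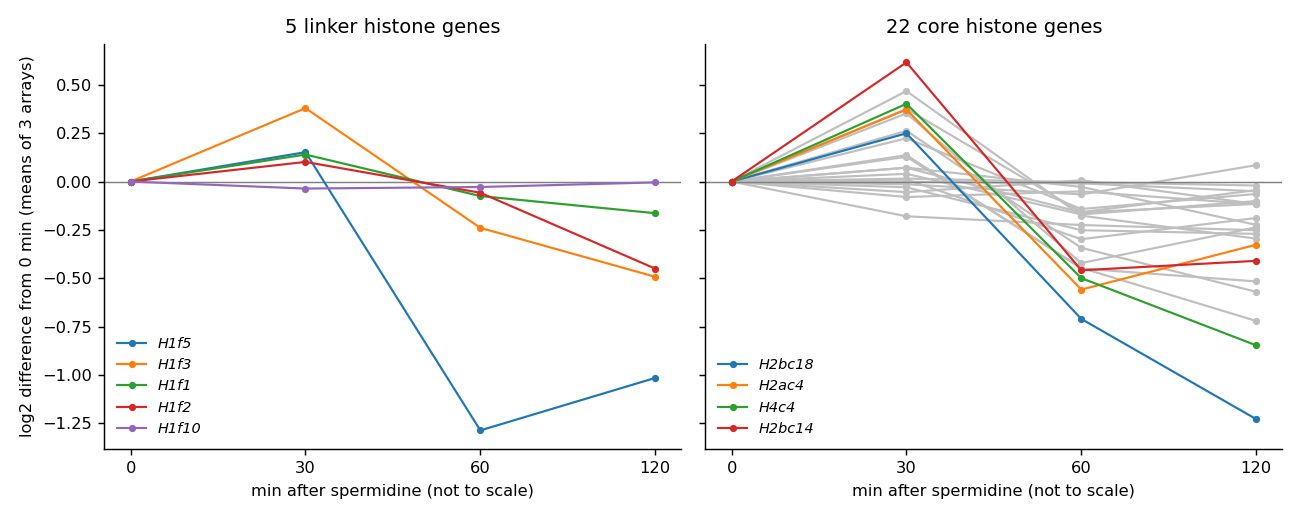
Mean log2 difference from 0 min (y axis) of 5 linker histone genes (left) and 22 core histone genes (right) at 0, 30, 60 and 120 min (x axis, not to scale), each line 1 gene and each point a mean of 3 arrays. H1f5 is at 0.15 at 30 min and at -1.29 at 60 min, and several core histone genes are above 0 at 30 min and below it at 60 min.

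The core histone median was 0.10 at 30 min and -0.23 at 120 min against 0 min, and -0.34 at 60 min against 30 min. Between 30 and 60 min, 7 genes fell and 2 rose over the whole array (0.0351% and 0.01% of the genes tested), and 6 of the 7 were in the 2 histone lists: H1f5, H1f3 (-0.62), H2ac15 (-0.59), H2bc14 (-1.08), H2bc18 (-0.96) and H2bc3 (-0.37), with limma adjusted p-values up to 0.0303. The seventh, H4f16, is also named as a histone gene, and Set, the gene of a histone chaperone, and Scarna13, a small nuclear RNA gene, rose by 0.30 and 0.61. These names were chosen after their values were seen. With the replicate block only H1f5 stayed called in this interval (0.00502% of genes), and the other 8 had adjusted p-values of 0.0693 to 0.0941. The comparisons against 0 and against 30 min share the 60 min arrays.

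A list of 44 genes that act at entry into S phase and in copying DNA had a median of -0.09, with 7 entirely below 0 min, 0 above, 0 called (limma) and 1 negative difference at an unadjusted p under 0.05. Cdc25a, the phosphatase that activates Cdk2, was that 1, with -0.35 ± 0.12 (SE; adjusted p = 0.807). The 27 mitotic genes had a median of -0.01. Over all genes, 6% lay entirely below 0 min and 2.65% were lower at an unadjusted p under 0.05, so the share at that p in the list of 44 was near the background. The share of the 44 entirely below 0 min, 15.9%, was above the 6%. Sterol synthesis, 21 genes, had a median of -0.09, with 7 entirely below 0 min, 0 called and 3 at an unadjusted p under 0.05, all lower, beside the same 6% and 2.65% of all genes. Among them Nsdhl and Tm7sf2, enzymes of the later steps, each had -0.23 ± 0.11 and -0.23 ± 0.10 (SE).

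The measured genes of polyamine metabolism had small differences, with wide intervals for some. Of 29 listed, 22 were measured, 0 were called and 0 had an unadjusted p under 0.05, and their differences ran from -0.15 (Gpc1, a glypican that takes part in polyamine uptake) to 0.16 (Azin2, an antizyme inhibitor). Odc1, the enzyme that DFMO inhibits, had 9.82 ± 0.04 (SD, n = 3) at 0 min and 9.82 ± 0.02 at 60 min, a difference of 0.001 with a 95% interval of -0.141 to 0.142. Sat1, which acetylates spermidine for export and breakdown, had 9.24 ± 0.05 and 9.36 ± 0.09 (SD, n = 3), the only gene of the list with all 3 arrays at 60 min above those at 0 min, and Dhps, the first enzyme of hypusine synthesis, was the only one with all 3 below (-0.11 ± 0.07, SE). That is 4.55% of the 22 genes each way, near the 5.49% above and 6% below of all genes. Srm, spermidine synthase, had -0.02 ± 0.07, and Azin1 0.07 ± 0.08 (SE). The antizyme genes among the 22 were Oaz2 (-0.13, 95% interval -0.47 to 0.20) and Oaz3 (0.01). The level of Oaz3 at 0 min, 3.86, was under the array medians. Oaz1, Amd1 and Sms were not among the 22. These are RNA values, and control of Odc1, Sat1 and antizyme is known to act largely on translation and protein turnover, which the array does not read.

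Around Rassf1, 23 genes of the Rassf family and the Hippo pathway were measured. Besides Rassf1, only Sav1 (-0.10 ± 0.04, SE) and Yap1 (-0.15 ± 0.07) had an unadjusted p under 0.05, and the median was 0.01. These 3 lower genes are 13.0% of the list and 0 were higher at that p, against 2.65% and 2.48% of all genes. Rassf1, around which the list was drawn up, is 1 of the 3, so this share does not stand apart from its call. Sav1 and Yap1 were not called (limma adjusted p = 0.860 and 0.973). Of 23 p53 targets, 0 were called, and 2, Btg2 and the polo-like kinase Plk2 (0.35 ± 0.12, SE), had an unadjusted p under 0.05, both of which are also early response genes. They are 8.70% of the list, against 2.48% of all genes higher at that p. Entirely above 0 min were 4 of the 23 p53 targets and entirely below 0, against 5.49% and 6% of all genes. The ATF4 targets Chac1 and Cth had 0.47 ± 0.19 and 0.32 ± 0.13 (adjusted p = 0.921 for both) in a list of 27 with a median of 0.04. They were the only 2 of the 27 at an unadjusted p under 0.05, or 7.41%, against 2.48% of all genes higher at that p. Entirely above 0 min was 1 gene of that list, and 3 were entirely below (3.70% and 11.1%, against 5.49% and 6%). Heat shock genes (13), the unfolded protein response (19) and NRF2 targets (19) had 0 genes at an unadjusted p under 0.05 and medians of 0.01, -0.05 and -0.08. Of all genes, 2.48% were higher and 2.65% lower at that p. Negative differences numbered 3, 15 and 14 in these lists. Of the NRF2 targets, 2 lay entirely below 0 min and 0 above (10.5% below, against 6% of all genes). In the interferon list of 15, 9 differences were positive and the median was 0.01. At an unadjusted p under 0.05, 2 of the 15 were lower and 0 higher (13.3% lower, against 2.65% of all genes). Irf1, 1 of the 2, had -0.37 ± 0.12 (SE; adjusted p = 0.733). Another probe set of Irf1, at 3.95 at 0 min and so under the array medians, had -0.02.

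Outside the lists, the largest negative differences included Txnip, the thioredoxin-interacting protein, with 10.34, 10.05 and 10.27 at 0 min and 9.78, 9.73 and 9.39 at 60 min (-0.58 ± 0.15, SE; adjusted p = 0.492). Rgs2, a regulator of G protein signalling, had -0.46 ± 0.15 and the vasohibin gene Vash2 -0.45 ± 0.17. Neither Rgs2 nor Vash2 was called. These genes and Txnip were picked from those whose groups do not overlap, so that trait came with the choice.

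The cells carried the marker genes of fibroblasts: 7 such genes had a median level of 10.2, and their summed log2 values were 67.6 to 69.2 at 0 min and 67.8 to 68.4 at 60 min. Marker lists of macrophages, epithelium, adipocytes, skeletal muscle and endothelium (27 genes in all) had median levels of 3.83 to 4.26, under the array medians. Lyz2 (7.44 at 0 min) and Krt14 (7.47 at 0 min) were the highest of them, and 0 were called (limma), with 1 higher and 1 lower at an unadjusted p under 0.05. In the whole series, replicate 3 at 120 min and replicate 3 at 240 min stood apart from their labelled times. They enter the comparison of 60 with 0 min through the pooled spread only, while 120 min replicate 3 is part of every 120 min mean given here. For 60 against 0 min, without them 6 genes were higher and 5 lower, the 5 above among them.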

How the data were processed

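The deposited series table holds log2 expression values, 1 per probe set and array. Per the submitters' processing notes, scans were handled in Partek with RMA (the sources used here give no versions); the log2 scale was inferred from the values (2.94 to 13.6), which the authors did not label. Replicate means over the 8 times were equal in every gene (largest gap 8.75e-05), so a replicate effect had been removed.

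The array has 35399 probe sets. The platform table names 1 gene for 21789 of them, more than 1 for 1621 and no gene for 11989. Probe sets with 1 symbol were kept, and for the 999 genes with several, the one with the highest mean. By gene ID, 19856 of 19938 genes matched RefSeq, all with the same symbol.

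A mean per time was fitted over all 24 arrays (limma 3.58.1, R 4.3.3; 16 residual and 3.48 prior degrees of freedom), with two-sided moderated tests, Benjamini-Hochberg adjustment within each comparison and calls at an adjusted p under 0.05. The script was tested on simulated data. Standard errors (SE) and 95% intervals are the model's; SD is between arrays. That the numbered samples are separate cultures is not stated, so p-values measure the spread between them.

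The comparison, the 32 gene lists and the tests were chosen with earlier results of these data known. Genes named are those called, the 10 largest differences each way whose groups do not overlap at an unadjusted p under 0.05, and the members of each list with the smallest p (6 for early response and histone lists, 4 for others). For the 10 each way, gene models without a proper name (such as Gm, Rik and LOC entries) and olfactory or vomeronasal receptor genes were passed over. Any polyamine gene could be named. Lists are described by counts, with no set test. The effect of 18 alternatives, and of those chosen after seeing the data (all probe sets in 1 fit; 120 minus 60 min with the block or without arrays that stood apart), is given beside the results or at the end. Promoters and microRNAs are from RefSeq (GRCm38.p6).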

Additional observations from a re-analysis of the deposited data

Results flagged for a closer look

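Probe sets that list several genes or none were outside the comparison, and a fit over all 35399 probe sets, chosen after seeing the data, gave calls among them. There were 10 probe sets that each list the same 12 replication-dependent H3 genes, and all 10 fell at 60 min, with a median log2 difference of -0.75 (range -0.84 to -0.71; limma adjusted p 0.00416 to 0.00876, and 0.0170 to 0.0310 with the replicate block). Their mean was 10.56, 10.31 and 10.17 in the 3 arrays at 0 min and 9.57, 9.73 and 9.47 at 60 min, with no overlap between the groups. Over the time course it was 10.48 at 30 min, 9.53 at 120 min, 9.84 at 360 min and 10.98 at 600 min. The 10 probe sets read the same genes and are not 10 independent results, and the gene behind the signal cannot be named. The 6 probe sets that list several H4 genes had differences of -0.54 to -0.22, with 0 called (limma; all 6 had an unadjusted p under 0.05, and 3 of the 6 had all arrays at 60 min below those at 0 min). Among the outside probe sets with the smallest p-values, 1 that lists mostly H2B genes had -0.70 and 1 that lists H2bc6 and H1f4 had -0.41. Neither was called (limma adjusted p = 0.202 and 0.204), and both lay entirely below 0 min.

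In the same fit, 1 of 11989 probe sets with no gene symbol was called: probe set 10338740 was higher by 1.17 at 60 min, with 4.63, 4.21 and 3.94 at 0 min and 5.58, 5.12 and 5.60 at 60 min (limma adjusted p = 0.00876, and 0.0310 with the replicate block). What it measures is not known here.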

How the results depend on the processing

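Of the 2 genes called higher and 3 called lower, the replicate block left 1 and 1, the 6 arrays alone left 0 and 0, and the 9 arrays at 0, 30 and 60 min left 0 and 1. Leaving out the 2 arrays that stood apart gave 6 and 5, and 2 and 2 with the replicate block as well. An intensity trend with a robust prior gave 4 higher, and the filter on dim genes, which kept 10146 genes and dropped Mir181b-1, also gave 4 higher; Edn1 and Ptger4 were added in both. Leaving out 1 of the 6 arrays gave between 1 and 5 higher and between 1 and 3 lower. Array weights, quantile normalization, median centring, the mean of probe sets, and all probe sets with 1 symbol gave 2 or 3 higher and 3 lower. With all probe sets of the array in 1 fit, those with 1 symbol again gave 2 higher and 3 lower, beside 1 higher with no symbol and 10 lower with several. H1f5 was called in 17 of 18 alternatives, Egr1 in 16, Ccn1 in 12, Rassf1 in 11 and Mir181b-1 in 7 of the 17 that kept it. None of the 5 called genes and the 10 largest differences each way changed direction in the 18. Of the 138 genes that the naming rule reached, 15 did in at least 1 alternative, none of them called and each with a difference of at most 0.07 in size, H1f2 and Odc1 among them; 32 list medians moved by more than the spread of that list between replicates. Deviations of same-numbered arrays at 0 and 60 min correlated at -0.108, -0.0415 and 0.0951, but the replicate means had been made equal before deposit, so this cannot show whether the numbers pair the samples; the block serves to count the removed replicate effect. With 3 arrays a group, differences under about 0.118 on the log2 scale are within the 95% interval of a typical gene, and values near or under the array medians of 4.41 to 4.43 are not known to be above background.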
